A study of Homo sapiens with 12 samples.

Results

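The genes described here are 50 named members of the WNT signalling system: 19 ligands (WNT1 to WNT16), 14 receptors (FZD1 to FZD10, LRP5, LRP6, LGR4 and LGR5), 8 secreted antagonists (SFRP1, SFRP2, SFRP4, SFRP5 and DKK1 to DKK4), 4 nuclear factors (LEF1, TCF7, TCF7L1 and TCF7L2) and 5 feedback genes (AXIN2, NKD1, NKD2, RNF43 and ZNRF3). They were chosen by gene name. All 50 had an entry among the 58830 in the table, and 39 were tested, having reached 10 or more in no fewer than 3 of the 12 libraries, as did 20456 genes in all. RNA was sequenced from A549, an established human lung adenocarcinoma cell line with epithelial features, and from a derivative of it that the labels call Sm22mut, in which the site linking the microRNA miR-22 to its target SNAI1 was edited (the edited line). The groups were the edited line with TGFβ at 10 ng/mL, the edited line untreated, wild type with TGFβ at 10 ng/mL and wild type untreated, all sampled at day 5 with 3 libraries each, described in the labels as biological repeats. Because 1 such derivative was used, effects of the edit and of deriving the line cannot be told apart, and whether it is a clone is not stated in the labels. TGFβ is a cytokine that induces epithelial-mesenchymal transition in these cells.

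WNT proteins are secreted, lipid-modified ligands that bind Frizzled (FZD) receptors. Together with the co-receptors LRP5 and LRP6 they stabilise β-catenin, which then acts in the nucleus with the TCF and LEF factors, while WNT5A, WNT5B and WNT11 are best known for signalling that does not need β-catenin. SFRP proteins bind the ligands, DKK1, DKK2 and DKK4 bind LRP5 and LRP6, and the membrane ubiquitin ligases RNF43 and ZNRF3 remove Frizzled receptors from the cell surface unless R-spondins engage them through LGR4 or LGR5. AXIN2, NKD1, RNF43, ZNRF3 and LEF1 are themselves transcriptional targets of β-catenin in many tissues. In the lung, WNT7B is made by the epithelium of the developing airways.

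Values are the authors' normalized counts, and each library held between 84210775 and 111141708 recovered reads. The labelled cell type was checked on 6 epithelial markers, all of which had a mean of at least 10 in every group. Their summed normalized count lay between 502527 and 576451 in treated edited, 625511 and 648914 in untreated edited, 486508 and 624465 in treated wild-type, and 586425 and 605533 in untreated wild-type libraries. Of the 6 fibroblast markers, 4 had such a mean in untreated edited libraries and 5 in the other groups. Their sum was 1688 to 2036 in treated edited, 205.9 to 291.8 in untreated edited, 1277 to 1452 in treated wild-type and 198.7 to 252.2 in untreated wild-type libraries. This sum was carried in the treated libraries by LUM (1091 to 1408 in the edited line, 702.8 to 859.6 in wild type) and PDGFRA (386.6 to 420.9 in the edited line, 334.6 to 456.4 in wild type), while DCN did not exceed 18.2 in any library. It was higher with TGFβ in both lines, together with the members that rose, and its part in them was not tested. Within the epithelial list CDH1 was lower with TGFβ (9981 to 10650 in treated and 32370 to 35810 in untreated edited libraries, 9000 to 9375 in treated and 26690 to 30330 in untreated wild-type ones), whereas KRT7 was higher. The endothelial sum was lower with TGFβ, at 36.54 to 68.26 in treated and 142.7 to 184.7 in untreated edited libraries, and 32.6 to 80.69 with and 114.6 to 160.1 without it in wild type, mainly through PECAM1. TEK, of the same list, was higher with TGFβ. It was at 16.7 to 44.15 in treated and 0 to 2.063 in untreated edited libraries. In wild type it was at 10.55 to 36.98 with and 0 without TGFβ. The part of these markers in the members' changes was not tested. The leukocyte sum was at most 423.5, and 2 to 4 of the 6 markers of either list reached a mean of 10. The treated wild-type libraries stood apart from each other in how values depended on transcript length, with slopes of -0.0894, -0.00135 and 0.0908 log2 units per doubling of length, against -0.0366 to 0.0334 in the other 9 libraries. In bulk RNA, fewer cells of a type and less RNA per cell cannot be told apart.

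TGFβ moved most of the system in both lines. In the edited line 22 of the 39 tested members rose and 9 fell, and in wild type 24 rose and 8 fell. WNT7A, LGR5, SFRP5 and DKK2 reached 10 in treated libraries alone and WNT6 in untreated ones alone, so they were tested only through the condition in which they were high. Without these 5, 19 of 34 members rose and 8 fell in the edited line, and 21 rose and 7 fell in wild type. Over all 20456 tested genes, 62.8% were called with TGFβ in the edited line, 32.1% higher and 30.7% lower. In wild type 61.7% were called, 30.8% higher and 30.9% lower. Here a call is an adjusted p under 0.05 in limma's test. The median log2 fold change of the members was 0.54 in the edited line, beside 0.03 over all tested genes, and 0.44 in wild type, beside 0.02. Both medians cover all 39 tested members, with the 5 tested only through the condition in which they were high. They were not recomputed without these 5, so their excess over all genes comes in part from members the filter favoured. The lines shared 21 members called higher and 6 called lower (WNT4, WNT6, LGR4, DKK1, RNF43 and ZNRF3). The 21 include WNT7A, SFRP5 and DKK2 and the 6 include WNT6, each tested only through the condition in which it was high. The share of all tested genes called the same way in both lines was not counted. No member was called in opposite directions. LEF1, LGR5 and NKD2 were called in neither line. Among the called members, 19 changed at least 2-fold in the edited line and 17 in wild type. Both counts include WNT6, WNT7A, SFRP5 and DKK2, which met the filter through 1 condition alone. The share of all tested genes that changed at least 2-fold was not counted.

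The lines themselves differed less. Without TGFβ, 10 members were higher and 7 lower in the edited line than in wild type, beside 14.3% and 17.5% of all tested genes (31.8% in either direction). With TGFβ, 11 were higher and 1 was lower, beside 7.38% and 4.32% of all tested genes (11.7% in either direction). When every library was scaled to an equal total these counts became 11 and 4, and when treated wild type was represented by its middle library alone (by length slope), 7 and 0. DKK2, FZD3, FZD6, LEF1 and RNF43 were higher in the edited line in both conditions, and SFRP4 was lower in both. Of these, the untreated DKK2 call rested on 8 reads against 0. The calls of DKK2 and FZD6 in both conditions, and that of SFRP4 with TGFβ, were each lost under at least 1 alternative. The TGFβ response itself differed between the lines (the interaction) for 11 members, of which 9 had a more positive and 2 a more negative response in the edited line, beside 10.6% and 6.02% of all tested genes (16.6% in either direction). Scaling to equal totals gave 9 and 6, and the middle library alone 9 and 1.

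**Figure D1:**
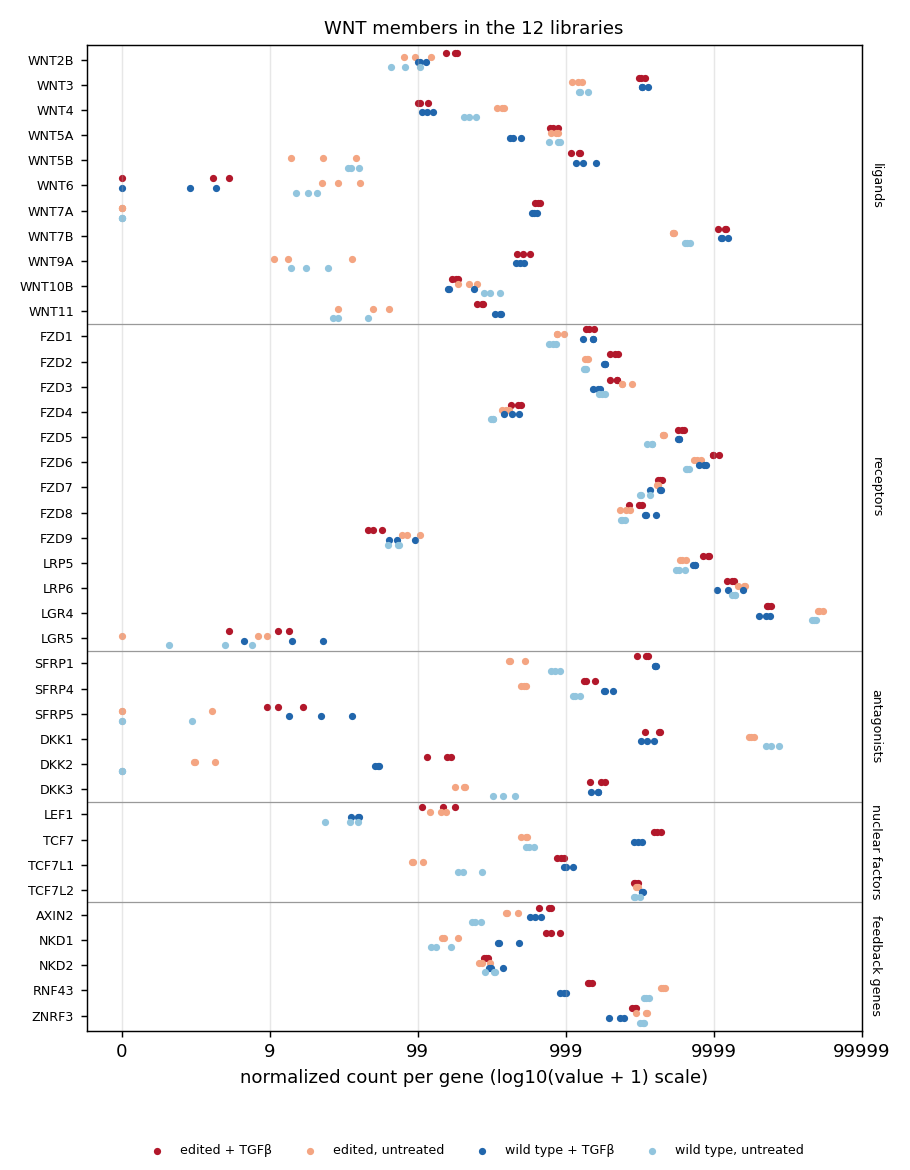
Normalized counts of the 39 tested members (rows, grouped by role) on a log10(value + 1) axis, 1 point per library, in the edited line with TGFβ (dark red) and untreated (orange) and in wild type with TGFβ (dark blue) and untreated (light blue). WNT7A sits at 0 in all untreated libraries and between 596 and 670.1 in all treated ones, and LEF1 lies to the right in both edited groups.

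**Figure D2:**
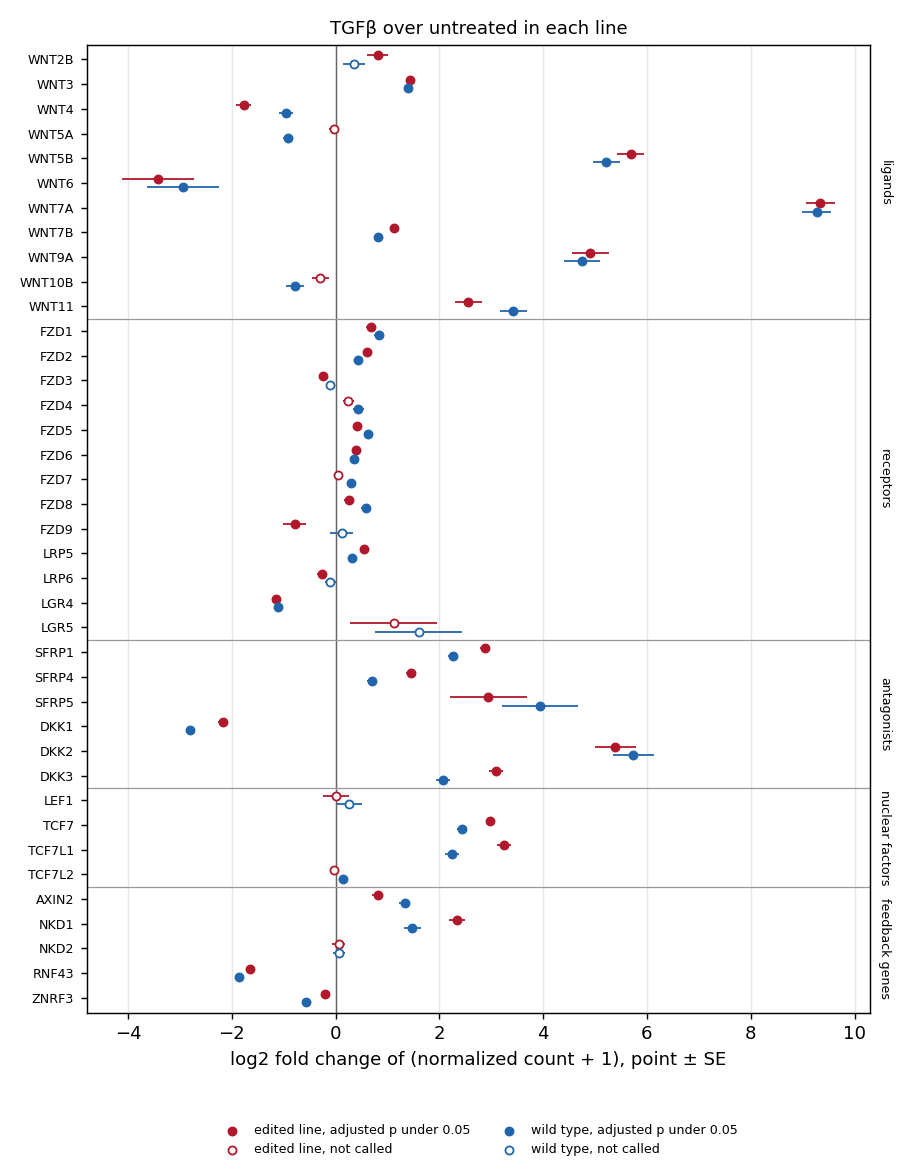
Log2 fold change of (normalized count + 1) with TGFβ over untreated for each tested member, in the edited line (red) and in wild type (blue), as point ± SE from the limma fit; filled points passed at an adjusted p under 0.05. WNT7A is furthest to the right in both lines, and WNT6 and DKK1 are furthest to the left. WNT6, WNT7A, LGR5, SFRP5 and DKK2 met the filter through 1 condition alone, so whether their points are filled gives no support. The position of WNT7A depends on the 1 added to untreated counts of 0. WNT5A is filled in wild type alone.

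For 12 members the absolute log2 fold change with TGFβ was at least 2 in both lines: WNT5B, WNT6, WNT7A, WNT9A, WNT11, SFRP1, SFRP5, DKK1, DKK2, DKK3, TCF7 and TCF7L1. Of these, WNT6, WNT7A, SFRP5 and DKK2 met the filter through 1 condition alone. Promoter windows from RefSeq (GRCh38.p14), from 250 bases before to 50 after a transcript start, were found for 8 of them. They are shown for an abundant antagonist that fell (DKK1), for a ligand at 0 without TGFβ (WNT7A), for another ligand that rose (WNT9A) and for a nuclear factor that rose (TCF7, the first of its starts listed). Each is written 5′ to 3′ on the strand of its gene, with matches to the searched motifs in capitals: CTTTGA (TCF/LEF), CAGAC and GGCGCC (SMAD) and TGANTCA (AP-1), on either strand.
DKK1, chr10:52314031-52314330, plus strand: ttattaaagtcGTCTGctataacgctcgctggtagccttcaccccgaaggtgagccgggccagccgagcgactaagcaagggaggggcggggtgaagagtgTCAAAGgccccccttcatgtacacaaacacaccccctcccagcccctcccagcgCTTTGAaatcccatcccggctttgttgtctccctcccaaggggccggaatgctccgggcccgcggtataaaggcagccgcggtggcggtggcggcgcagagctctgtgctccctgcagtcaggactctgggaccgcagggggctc
WNT7A, chr3:13880022-13880321, minus strand: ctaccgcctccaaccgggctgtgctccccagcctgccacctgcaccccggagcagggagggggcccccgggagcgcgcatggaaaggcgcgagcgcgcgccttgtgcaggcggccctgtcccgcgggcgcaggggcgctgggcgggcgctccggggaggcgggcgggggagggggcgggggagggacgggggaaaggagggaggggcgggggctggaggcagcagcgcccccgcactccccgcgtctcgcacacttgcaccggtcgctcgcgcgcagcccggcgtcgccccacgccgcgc
WNT9A, chr1:227947883-227948182, minus strand: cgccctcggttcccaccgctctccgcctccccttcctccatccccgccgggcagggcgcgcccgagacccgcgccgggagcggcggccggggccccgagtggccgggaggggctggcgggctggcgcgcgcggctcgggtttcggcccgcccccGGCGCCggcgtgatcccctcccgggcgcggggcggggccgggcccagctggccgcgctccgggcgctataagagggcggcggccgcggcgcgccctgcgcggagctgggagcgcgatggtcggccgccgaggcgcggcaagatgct
TCF7, chr5:134115363-134115662, plus strand: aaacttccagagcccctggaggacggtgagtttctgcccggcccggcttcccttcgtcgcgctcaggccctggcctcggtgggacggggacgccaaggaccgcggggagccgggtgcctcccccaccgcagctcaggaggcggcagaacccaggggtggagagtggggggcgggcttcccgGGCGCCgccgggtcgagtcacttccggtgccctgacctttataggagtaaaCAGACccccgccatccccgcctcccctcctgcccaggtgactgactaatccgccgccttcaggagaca
Of the 8 members with a window, 1 (DKK1, with 2 matches) held CTTTGA, 3 held CAGAC, 3 held GGCGCC and 0 held TGANTCA. Among 35116 promoters of the same length the shares were 12.9%, 45.3%, 19.2% and 7.71%. The matches describe letters in these windows and were not tied to any measured binding.

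Among the ligands, WNT7A, WNT5B, WNT9A and WNT11 were at 0 or low without TGFβ and rose with it in both lines, and WNT4 and WNT6 fell. Of the 11 tested ligands, 7 rose and 2 fell in the edited line, and 6 rose and 4 fell in wild type. Leaving out WNT6 and WNT7A, which met the filter in 1 condition alone, 6 of 9 rose and 1 fell in the edited line, and 5 rose and 3 fell in wild type. Beside this, 62.8% of all tested genes were called in either direction in the edited line and 61.7% in wild type. WNT7A, known in the mouse for limb and reproductive tract patterning, was read only with TGFβ: it had 649, 622 and 670.0 normalized counts in treated edited libraries and 596, 613 and 640.5 in treated wild-type libraries, and 0 in all 6 untreated libraries. Taking 3 reads per library as the limit that a count of 0 allows, WNT7A was at least 222-fold higher with TGFβ in the edited line and at least 213-fold higher in wild type, given with no p because the treated libraries alone brought it past the filter. The levels of WNT7A in treated libraries overlapped between the lines.

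WNT5B, a ligand of β-catenin-independent signalling, had 1249, 1080.0 and 1238 normalized counts in treated edited and 37.1, 12.9 and 22.1 in untreated edited libraries. WNT5B had 1600.4, 1304 and 1179 in treated and 38.9, 33.0 and 34.4 in untreated libraries of wild type. Its log2 fold change with TGFβ was 5.69 ± 0.26 (adjusted p = 1.24e-11) in the edited line and 5.22 ± 0.26 (adjusted p = 4.11e-11) in wild type. WNT9A, known in the mouse for joint formation, had 511, 472 and 574 with and 12.4, 9.65 and 35.1 without TGFβ in the edited line. WNT9A was at 464, 490.0 and 519 with and 23.9, 16.5 and 12.9 without TGFβ in wild type. Treated and untreated libraries were far apart for both genes, and the lines overlapped in each condition. The log2 fold change of WNT9A was 4.91 ± 0.35 (adjusted p = 2.99e-09) in the edited line and 4.75 ± 0.35 (adjusted p = 5.07e-09) in wild type.

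WNT11, which directs cell movements in zebrafish embryos, had 271, 251 and 275 normalized counts in treated and 27.9, 63.3 and 49.0 in untreated edited libraries. WNT11 stood at 365, 329.8 and 361 in treated and 44.9, 28.0 and 25.8 in untreated wild-type libraries. It rose by 2.56 ± 0.26 (adjusted p = 3.18e-07) on the log2 scale in the edited line and by 3.42 ± 0.26 (adjusted p = 1.03e-08) in wild type. The highest treated edited library lay below the lowest treated wild-type library, but neither the difference with TGFβ nor that of the responses passed the test. WNT3, an activator of β-catenin signalling, had 3413, 3125 and 3211 with TGFβ and 1106, 1292 and 1207 without it in the edited line. WNT3 had 3589, 3275 and 3285 in treated and 1223, 1409 and 1244 in untreated libraries of wild type, log2 fold changes of 1.44 ± 0.08 (adjusted p = 1.12e-10) in the edited line and 1.39 ± 0.08 (adjusted p = 1.92e-10) in wild type. Its libraries overlapped between the lines in both conditions.

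WNT7B was the most abundant ligand per length in every group. It had 12085, 10762 and 11908 normalized counts in treated and 5434, 5280.4 and 5280.2 in untreated edited libraries. WNT7B was at 12568, 11399.9 and 11123 with and 6620.3, 6385 and 6958 without TGFβ in wild type. It rose with TGFβ in both lines (log2 fold changes 1.12 ± 0.06 (adjusted p = 1.8e-10) in the edited line and 0.81 ± 0.06 (adjusted p = 1.11e-08) in wild type) and was lower in the untreated edited line than in untreated wild type (log2 fold change -0.32 ± 0.06 (adjusted p = 0.00111)). All 3 untreated edited libraries lay below all untreated wild-type ones, whereas the treated libraries of the lines overlapped. The rise exceeded that in wild type by 0.31 ± 0.09 (adjusted p = 0.0279). This call was lost when any of 7 single libraries was left out (repeats 1 and 3 of untreated wild type, repeat 2 of treated wild type, repeats 2 and 3 of the untreated edited line, and repeats 1 and 3 of the treated edited line), with values between 0.27 and 0.31.

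WNT5A fell with TGFβ in wild type and not detectably in the edited line. It had 883, 824 and 785 normalized counts in treated and 864, 791 and 887 in untreated edited libraries. WNT5A stood at 418, 441 and 502 in treated and 887, 775 and 911 in untreated wild-type libraries. The treated wild-type libraries were all lower than the other 9, which overlapped. The log2 fold change with TGFβ was -0.03 ± 0.10 (adjusted p = 0.819) in the edited line, which turned to 0.01 without repeat 3 of the untreated or of the treated edited line, and -0.92 ± 0.10 (adjusted p = 5.23e-07) in wild type. The responses differed by 0.89 ± 0.14 (adjusted p = 0.00047), and with TGFβ the edited line was higher by 0.87 ± 0.10 (adjusted p = 3.16e-05). When a trend with transcript length was removed from each library, WNT5A passed as lower with TGFβ in the edited line too, at -0.26.

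WNT4, a ligand needed in kidney development, had 102, 99.1 and 116 normalized counts in treated and 343, 368 and 379 in untreated edited libraries. WNT4 had 125, 105 and 114 in treated and 220.3, 204 and 246 in untreated libraries of wild type. Its log2 fold change with TGFβ was -1.77 ± 0.14 (adjusted p = 1.53e-08) in the edited line and -0.95 ± 0.14 (adjusted p = 2.29e-05) in wild type. Untreated edited libraries were all higher than untreated wild-type ones (log2 fold change 0.70 ± 0.14 (adjusted p = 0.00137)), and the treated libraries overlapped. The response was more negative in the edited line, with a difference of -0.82 ± 0.20 (adjusted p = 0.0107), a call lost with the middle treated wild-type library alone (-0.70). WNT6, a ligand of epithelia, was low throughout, with 3.13, 4.31 and 0 normalized counts in treated and 21.7, 27.9 and 40.1 in untreated edited libraries. WNT6 was at 0, 1.92 and 3.36 with and 19.9, 14.0 and 17.2 without TGFβ in wild type. It came to 7 reads against 96 in the edited line, where the untreated level was 12.1 times the treated one (95% counting interval 5.67 to 31), and to 6 reads against 53 in wild type, where the ratio was 8.82 (3.79 to 25.1).

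WNT10B and WNT2B changed less. WNT10B, known from bone and fat, had 179.6, 186 and 168 with and 221, 249 and 186 without TGFβ in the edited line. WNT10B stood at 239, 160.1 and 161 in treated and 306, 282 and 361 in untreated wild-type libraries; it fell with TGFβ in wild type (-0.78 ± 0.17 (adjusted p = 0.000949)) and was lower in the untreated edited line than in wild type (-0.53 ± 0.17 (adjusted p = 0.0267)). The second of these calls was lost without repeat 1 or 3 of either untreated group, at values between -0.55 and -0.42. WNT2B, which helps to specify the lung in the mouse, had 184, 155 and 179 with and 123, 94.4 and 80.1 without TGFβ in the edited line. WNT2B had 103, 112 and 99.2 in treated and 64.8, 103 and 81.6 in untreated libraries of wild type. It rose with TGFβ in the edited line (0.81 ± 0.21 (adjusted p = 0.00278)), and its higher level there than in treated wild type (0.71 ± 0.21 (adjusted p = 0.0358)) was lost when any of 5 of the 6 treated libraries was left out (all but repeat 2 of the edited line), at 0.66 to 0.76. WNT2B shares 2661 exon bases with ST7L on the opposite strand. Of the untested members, WNT1, WNT2, WNT3A, WNT8A, WNT8B, WNT9B, WNT10A and WNT16 are ligands, and no untested member exceeded 16.5 in any library.

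Set on a scale of normalized counts per kb of exon, the summed ligands stood at 3926 ± 209 in the treated edited line, 1671 ± 15.7 in the untreated edited line, 3989 ± 249 in treated wild type and 1949 ± 68.5 in untreated wild type (SD, n = 3 each). WNT7B made up 58.4% of the sum in the treated and 63.2% in the untreated edited line, and 58.1% in treated and 67.6% in untreated wild type. WNT3 made up 19.1% in the treated and 16.6% in the untreated edited line, and 19.6% in treated and 15.3% in untreated wild type. WNT5B stood at 7.03% in the treated and 0.334% in the untreated edited line, and at 7.93% in treated and 0.422% in untreated wild type.

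**Figure D3:**
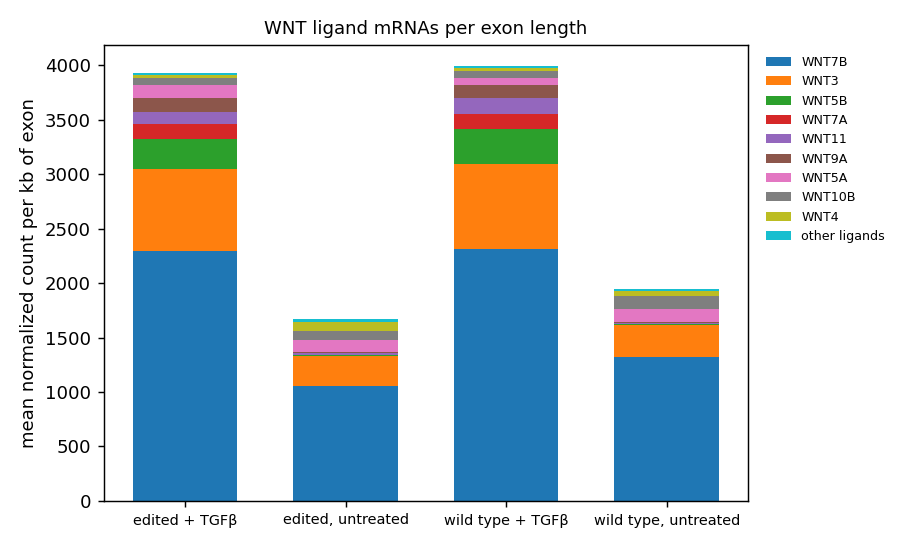
Mean normalized count per kb of exon of the ligands, stacked by gene, in the 4 groups (3 libraries each). The treated groups reach 3926 in the edited line and 3989 in wild type, the untreated ones 1671 and 1949, and WNT7B is the largest segment of each bar.

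Receptors changed little in comparison, apart from LGR4. Of the 13 tested receptors, 6 rose and 4 fell with TGFβ in the edited line, and 8 rose and 1 fell in wild type. Over all tested genes 62.8% were called with TGFβ in the edited line and 61.7% in wild type. LGR5, called in neither line, met the filter through treated libraries alone. Without it the same counts stand among 12 receptors. Only 1 receptor (LGR4) changed at least 2-fold in either line. LGR4, the R-spondin receptor that keeps Frizzled proteins at the surface, had 23446, 22927 and 24314 normalized counts in treated and 51626, 50682 and 55062 in untreated edited libraries. LGR4 was at 20145, 22469 and 23939 with and 47983, 45970.0 and 49129 without TGFβ in wild type. The log2 fold change of LGR4 with TGFβ was -1.15 ± 0.07 (adjusted p = 2.02e-10) in the edited line and -1.11 ± 0.07 (adjusted p = 3.93e-10) in wild type. Every treated library lay below every untreated one in each line. LGR4 was the most abundant receptor per length in every group and made up 28.2% of the summed receptors per kb in the treated and 51.2% in the untreated edited line, and 28.8% in treated and 52.1% in untreated wild type.

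The Frizzled receptors FZD1, FZD2, FZD5, FZD6 and FZD8 rose in both lines, by log2 fold changes between 0.26 (FZD8) and 0.68 (FZD1) in the edited line and between 0.35 (FZD6) and 0.83 (FZD1) in wild type. FZD4 and FZD7 were called higher in wild type and not in the edited line, and FZD3 and FZD9 lower in the edited line and not in wild type; no receptor passed the test of the difference in response (5 had an unadjusted p under 0.05, edgeR called FZD5 and FZD8, and DESeq2 called FZD5 and FZD9). FZD4 is uncertain: it shares 1399 exon bases with PRSS23 on the opposite strand, which averaged 51820 normalized counts with and 14490 without TGFβ in the edited line, and 59270 with and 21560 without it in wild type, while FZD4 did not exceed 501.8 in any library. FZD6, the most abundant Frizzled per length, had 9877, 9829 and 10929 normalized counts in treated and 7362, 7700.2 and 8215 in untreated edited libraries. FZD6 stood at 7928, 8603 and 8815 in treated and 6468, 6608 and 6823 in untreated wild-type libraries. For FZD8 in the edited line the treated and untreated libraries overlapped (3293, 2682 and 3153 with and 2721, 2342 and 2569.8 without TGFβ), and that call was lost without repeat 2 of the untreated or repeat 1 or 3 of the treated edited line (0.20 to 0.23).

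LRP5 and LRP6 are the co-receptors of β-catenin signalling. LRP5 had 9256, 8483 and 9133 normalized counts in treated and 6469, 5945 and 6094 in untreated edited libraries. LRP5 had 7251, 7426 and 7480.4 in treated and 5859.7, 5568 and 6363 in untreated libraries of wild type, and it rose by 0.54 ± 0.06 (adjusted p = 1.03e-06) in the edited line and 0.32 ± 0.06 (adjusted p = 0.000275) in wild type on the log2 scale. LRP6 had 12225, 13256 and 13663 with and 16256, 14679 and 16074 without TGFβ in the edited line. LRP6 was at 10596, 12432 and 15865 with and 13388, 13983 and 13855 without TGFβ in wild type. It was called lower with TGFβ in the edited line (-0.26 ± 0.10 (adjusted p = 0.0358)), a call lost without repeat 1 or 3 of the untreated or repeat 1 or 2 of the treated edited line (-0.28 to -0.22). The 3 treated wild-type values of LRP6 spread more widely than those of any other group and ranked as the length slopes of those libraries did. LGR5, a stem cell receptor for R-spondins, had at most 21.9 normalized counts in any library and passed in no comparison.

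FZD3 and FZD6, which act in planar cell polarity in the mouse, were the Frizzled receptors that differed between the lines in both conditions. FZD3 had 1997, 2205 and 2233 normalized counts in treated and 2409, 2387 and 2802 in untreated edited libraries. FZD3 stood at 1519, 1651 and 1710.4 in treated and 1764, 1672 and 1839 in untreated wild-type libraries. Every edited library exceeded every wild-type library, and the log2 fold change was 0.40 ± 0.08 (adjusted p = 0.00381) with TGFβ and 0.52 ± 0.08 (adjusted p = 0.000119) without it. The fall of FZD3 with TGFβ in the edited line (-0.24) was lost without repeat 3 of the untreated or repeat 1 of the treated edited line (-0.16 and -0.19). FZD6 was higher by 0.27 ± 0.06 (adjusted p = 0.0102) with TGFβ, lost without repeat 3 of the treated edited line (0.22), with the middle treated wild-type library alone (0.25) and in a fit of the compared groups alone (0.27), and by 0.23 ± 0.06 (adjusted p = 0.0126) without TGFβ, lost without repeat 1 of untreated wild type (0.21) or repeat 3 of the untreated edited line (0.18). LRP5 was higher in the edited line with TGFβ (0.28 ± 0.06 (adjusted p = 0.00761)), a call lost with the middle treated wild-type library alone (0.27). FZD5 and FZD7 were higher without TGFβ (0.28 ± 0.06 (adjusted p = 0.00121) and 0.32 ± 0.07 (adjusted p = 0.00335)), as was FZD4 (0.31 ± 0.11 (adjusted p = 0.0491)), whose call was lost when any of 10 single libraries was left out (all but repeats 1 and 3 of treated wild type), at 0.27 to 0.35.

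Of the 4 antagonists that reached 10 in both conditions, SFRP1, SFRP4 and DKK3 rose with TGFβ and DKK1 fell, in both lines. SFRP5 and DKK2 were also higher with TGFβ, but met the filter through their treated libraries alone. DKK1, which blocks LRP5 and LRP6, had 4331, 3459 and 4298 normalized counts in treated and 17776, 17415 and 18789.7 in untreated edited libraries. DKK1 had 3953, 3536 and 3230.0 in treated and 27636, 22575 and 24427 in untreated libraries of wild type. With TGFβ its log2 fold change was -2.17 ± 0.09 (adjusted p = 7.51e-12) in the edited line and -2.80 ± 0.09 (adjusted p = 3.47e-13) in wild type. Untreated edited libraries all lay below untreated wild-type ones (log2 fold change -0.46 ± 0.09 (adjusted p = 0.00145)), and the treated libraries overlapped. The fall was smaller in the edited line by 0.63 ± 0.13 (adjusted p = 0.00411) on the log2 scale. DKK1 shares 212 exon bases with PRKG1-AS1 on the opposite strand, which averaged 77.05 normalized counts with and 597.7 without TGFβ in the edited line, and 64.33 with and 371.7 without it in wild type.

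SFRP1, SFRP4 and DKK3 rose in both lines, from a lower untreated level in the edited line. SFRP1, a secreted Frizzled-related protein, had 3576, 3049 and 3465 normalized counts in treated and 533, 422 and 415 in untreated edited libraries. SFRP1 was at 4069, 4030.1 and 4018 with and 908, 789 and 840.0 without TGFβ in wild type. It rose by 2.88 ± 0.10 (adjusted p = 2.45e-13) in the edited line and 2.26 ± 0.10 (adjusted p = 5.69e-12) in wild type on the log2 scale, a difference of 0.63 ± 0.14 (adjusted p = 0.00475). Untreated edited libraries of SFRP1 all lay below untreated wild-type ones (-0.89 ± 0.10 (adjusted p = 4.07e-06)). With TGFβ the edited libraries also all lay below the wild-type ones, but the difference did not pass (-0.27 ± 0.10 (adjusted p = 0.0855)). DKK3, a divergent member of its family that is often silenced in tumours, had 1846, 1469.8 and 1721 with and 203, 177 and 208 without TGFβ in the edited line. DKK3 stood at 1659, 1483 and 1649 in treated and 454, 320.5 and 374 in untreated wild-type libraries. Its log2 fold change was 3.09 ± 0.13 (adjusted p = 2.87e-12) in the edited line and 2.07 ± 0.13 (adjusted p = 4.88e-10) in wild type, with a difference of 1.02 ± 0.18 (adjusted p = 0.00104). Its untreated level was lower in the edited line than in wild type (-0.95 ± 0.13 (adjusted p = 3.16e-05)). The treated libraries of DKK3 overlapped between the lines.

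SFRP4, a family member expressed in many fibroblasts, had 1567, 1323 and 1376 normalized counts in treated and 495, 525 and 538 in untreated edited libraries. SFRP4 had 2103, 1828 and 1836 in treated and 1115, 1164 and 1256 in untreated libraries of wild type. It rose by 1.45 ± 0.09 (adjusted p = 4.14e-10) in the edited line and 0.70 ± 0.09 (adjusted p = 2.91e-06) in wild type, a difference of 0.74 ± 0.12 (adjusted p = 0.000725). SFRP4 was lower in the edited line than in wild type in both conditions (log2 fold changes -0.44 ± 0.09 (adjusted p = 0.00409) with TGFβ and -1.18 ± 0.09 (adjusted p = 9.3e-08) without it), and no libraries overlapped. The call with TGFβ was lost with treated wild type reduced to its middle library (-0.37). DKK2, which like DKK1 binds LRP6, had 166, 114 and 157 in treated and 2.06, 2.15 and 3.27 in untreated edited libraries, against 50.6, 53.7 and 53.0 in treated wild type and 0 in all untreated wild-type libraries. With TGFβ it was at least 18.1-fold higher in wild type, and in the edited line 403 reads stood against 8, a ratio of 56.9 (95% counting interval 28.6 to 133). With TGFβ, DKK2 was higher in the edited line than in wild type (1.44 ± 0.39 (adjusted p = 0.0238)), a call lost when any of 5 of the 6 treated libraries was left out (all but repeat 2 of the edited line), at 1.34 to 1.46; its call without TGFβ rested on 8 reads against 0 and was lost with a pseudocount of 10 (0.32). SFRP5 had 10.4, 8.61 and 15.9 in treated and 3.10, 0 and 0 in untreated edited libraries. SFRP5 was at 35.2, 21.1 and 12.6 with and 1.99, 0 and 0 without TGFβ in wild type. The ratio of its reads was 12.1 (3.77 to 61.5) in the edited line and 34.6 (9.21 to 291) in wild type. These intervals cover counting error only.

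Per kb of exon, the antagonists together summed to 3301 ± 355 in the treated and 8436 ± 325 in the untreated edited line, and to 3343 ± 219 in treated and 11859 ± 1177 in untreated wild type (SD, n = 3 each). DKK1 made up 55.3% of the sum in the treated and 96.7% in the untreated edited line, and 48.4% in treated and 95.1% in untreated wild type. SFRP2 and DKK4 were among the untested members.

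The nuclear factors split into members that rose and members that did not. TCF7, which has activating and repressing isoforms, had 4167, 3954 and 4413 normalized counts in treated and 545, 502 and 540.3 in untreated edited libraries. TCF7 stood at 3261, 2913 and 3097 in treated and 564, 540.5 and 608 in untreated wild-type libraries. It rose by 2.98 ± 0.08 (adjusted p = 9.27e-15) in the edited line and 2.43 ± 0.08 (adjusted p = 1.22e-13) in wild type on the log2 scale, with a difference of 0.54 ± 0.11 (adjusted p = 0.00263). With TGFβ its level in the edited line exceeded that in wild type (0.43 ± 0.08 (adjusted p = 0.00147)). The lines overlapped for TCF7 without TGFβ and not with it. TCF7 shares 210 exon bases with SKP1 on the opposite strand. SKP1 averaged 18700 normalized counts with and 15290 without TGFβ in the edited line, and 21470 with and 18390 without it in wild type. TCF7L1, mainly a repressor, had 929, 875 and 979 with and 107, 92.2 and 90.7 without TGFβ in the edited line. TCF7L1 had 1112, 999 and 973 in treated and 201, 186 and 271 in untreated libraries of wild type. TCF7L1 had a log2 fold change with TGFβ of 3.25 ± 0.14 (adjusted p = 4.22e-12) in the edited line and 2.24 ± 0.14 (adjusted p = 5.28e-10) in wild type, with a difference of 1.01 ± 0.19 (adjusted p = 0.00204). Its untreated level was lower in the edited line (-1.16 ± 0.14 (adjusted p = 1.01e-05)).

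LEF1, an activator that is also a β-catenin target, differed between the lines in both conditions and passed with TGFβ in neither line. It had 176, 106 and 147 normalized counts in treated and 119.7, 144 and 154 in untreated edited libraries. LEF1 was at 38.5, 39.3 and 34.5 with and 33.9, 38.7 and 22.6 without TGFβ in wild type. Every edited library exceeded every wild-type library, by 1.88 ± 0.25 (adjusted p = 0.000167) with TGFβ and 2.13 ± 0.25 (adjusted p = 1.07e-05) without it, while treated and untreated libraries overlapped within each line. LEF1 shares 279 exon bases with LEF1-AS1 on the opposite strand, which averaged 6.557 in treated edited, 18.99 in untreated edited, 5.984 in treated wild-type and 1.265 in untreated wild-type libraries. TCF7L2 had 2904, 3061 and 2948 with and 3016, 2971 and 3088 without TGFβ in the edited line. TCF7L2 stood at 3289.8, 3354 and 3264 in treated and 3158, 2947 and 2914 in untreated wild-type libraries. It was called higher with TGFβ in wild type (0.14 ± 0.06 (adjusted p = 0.047)); the call was lost when any of 10 single libraries was left out (all but repeat 1 of untreated wild type and repeat 2 of the treated edited line), at 0.11 to 0.14, and the sign turned (-0.02) when the length trend was removed. Per kb, TCF7 made up 38.0% of the summed nuclear factors in the treated and 9.57% in the untreated edited line, and 29.6% in treated and 10.2% in untreated wild type. TCF7L2 made up 40.3% in the treated and 81.7% in the untreated edited line, and 47.3% in treated and 79.9% in untreated wild type.

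Among the feedback genes, AXIN2 and NKD1 rose with TGFβ, and RNF43 and ZNRF3 fell. AXIN2, a scaffold of the complex that degrades β-catenin, had 773, 660.1 and 799.7 normalized counts in treated and 474, 394 and 403 in untreated edited libraries. AXIN2 had 570.5, 623 and 677 in treated and 265, 233 and 242 in untreated libraries of wild type. It rose by 0.81 ± 0.11 (adjusted p = 1.13e-05) in the edited line and 1.33 ± 0.11 (adjusted p = 3.85e-08) in wild type, and it was higher in the untreated edited line than in untreated wild type (0.77 ± 0.11 (adjusted p = 9.5e-05)). AXIN2 shares 1316 exon bases with AC004805.1 on the same strand, so its level is uncertain. The untreated AXIN2 libraries of the lines were apart and the treated ones overlapped. The response was smaller in the edited line, with a difference of -0.52 ± 0.16 (adjusted p = 0.0381); this call was lost when any of 8 single libraries was left out (all but repeat 1 of each wild-type group, repeat 2 of the untreated edited line and repeat 3 of the treated edited line), at -0.55 to -0.44.

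NKD1, which antagonises the signal at Dishevelled, had 801, 735 and 913 normalized counts in treated and 186, 150.2 and 145 in untreated edited libraries. NKD1 was at 356, 346 and 486 with and 133, 122 and 168 without TGFβ in wild type. It rose by 2.34 ± 0.16 (adjusted p = 2.71e-09) in the edited line and 1.48 ± 0.16 (adjusted p = 7.83e-07) in wild type. With TGFβ every edited library exceeded every wild-type library (1.05 ± 0.16 (adjusted p = 0.0006)), and without it the libraries overlapped. The rise exceeded that in wild type by 0.86 ± 0.23 (adjusted p = 0.0184), a call lost without repeat 3 of untreated wild type (0.73), repeat 2 of treated wild type (0.77) or repeat 3 of the treated edited line (0.78). NKD2 lay between 257.9 and 375.9 in every library and passed in no comparison.

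RNF43 had 1506, 1425 and 1430.0 normalized counts in treated and 4568, 4402 and 4705 in untreated edited libraries. RNF43 stood at 909, 1001 and 974 in treated and 3386, 3649 and 3468 in untreated wild-type libraries. Its log2 fold change with TGFβ was -1.65 ± 0.06 (adjusted p = 1.58e-12) in the edited line and -1.86 ± 0.06 (adjusted p = 3.79e-13) in wild type. In both conditions every edited library exceeded every wild-type one, by 0.60 ± 0.06 (adjusted p = 2.07e-05) with TGFβ and 0.38 ± 0.06 (adjusted p = 0.000281) without it. RNF43 shares 4326 exon bases with AC004687.2 and 143 with SUPT4H1, both on the same strand, so its level is uncertain. SUPT4H1 averaged 4140 normalized counts with and 5918 without TGFβ in the edited line, and 4147 with and 5436 without it in wild type. ZNRF3 had 2972, 2793 and 2924 with and 3537, 3002 and 3496 without TGFβ in the edited line. ZNRF3 had 1959, 2312 and 2485 in treated and 3200.0, 3316 and 3409 in untreated libraries of wild type. It fell with TGFβ in wild type (-0.56 ± 0.08 (adjusted p = 2.54e-05)) and, with TGFβ, was higher in the edited line than in wild type (0.37 ± 0.08 (adjusted p = 0.00969)), a call lost when the compared groups were fitted alone (adjusted p = 0.0551). Its fall in the edited line (-0.20 ± 0.08 (adjusted p = 0.0464)) was lost when any of 9 single libraries was left out (all but repeats 1 and 3 of treated wild type and repeat 2 of the untreated edited line), at -0.22 to -0.16.

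**Figure D4:**
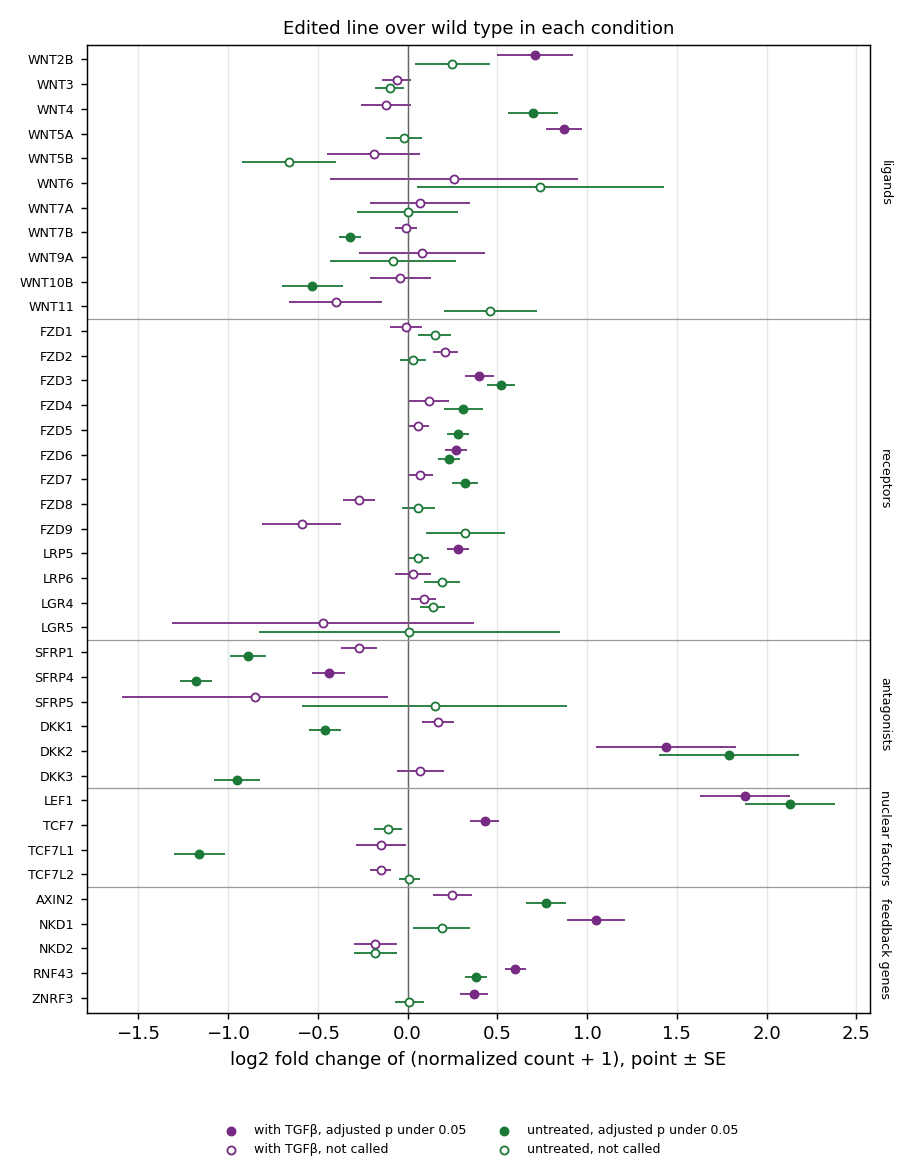
Log2 fold change of (normalized count + 1) in the edited line over wild type for each tested member, with TGFβ and untreated, as point ± SE from the limma fit; filled points passed at an adjusted p under 0.05. LEF1 is to the right in both conditions (1.88 with TGFβ, 2.13 untreated), SFRP4 to the left in both, and SFRP1, DKK3 and TCF7L1 to the left without TGFβ, where each passed, and unfilled with it; the untreated point of DKK2 rests on 8 reads.

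The members whose TGFβ response differed between the lines fell into several arrangements. For WNT7B, SFRP1, DKK3 and TCF7L1 the untreated level was lower in the edited line, no difference was called with TGFβ, and the rise was larger. DKK1 was also lower in the untreated edited line, and its fall was smaller. WNT4 and AXIN2 were higher in the untreated edited line, with no difference called after TGFβ. For WNT5A, TCF7 and NKD1 no difference was called without TGFβ and the edited line was higher with it. SFRP4 was lower in the edited line in both conditions, with the larger rise. These comparisons share the treated and untreated groups, so their values are not independent.

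**Figure D5:**
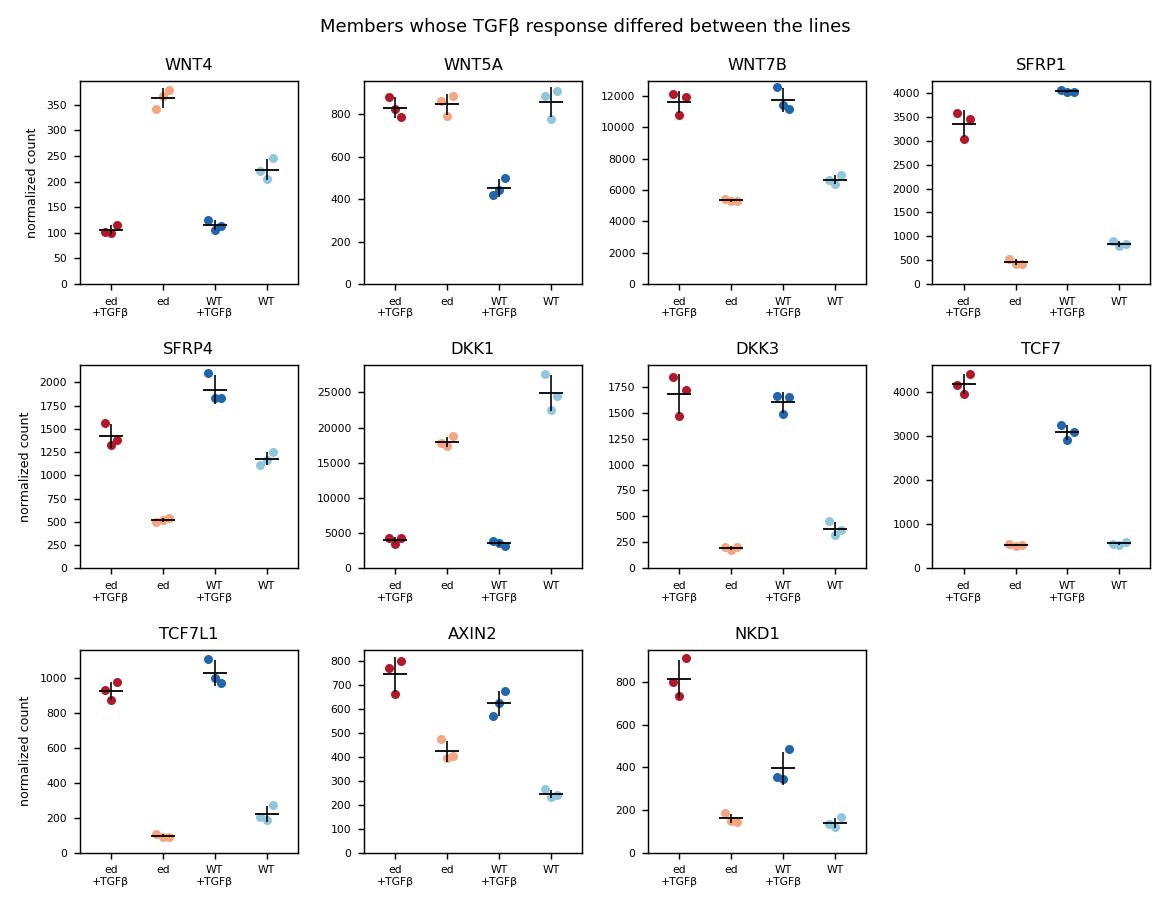
Normalized counts of the 11 members whose TGFβ response differed between the lines, by group (points are libraries, bars are mean ± SD, n = 3). The treated wild-type libraries of WNT5A sit between 418 and 502, below all others, and the untreated edited libraries of SFRP1, DKK3 and TCF7L1 are the lowest of the 4 groups.

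Other genes of the pathway were described from further lists. Of 28 signal transducers, all tested, 11 were higher and 7 lower with TGFβ in the edited line (64.3% called, near the 62.8% of all tested genes) and 13 higher and 9 lower in wild type (78.6%, beside 61.7%). CTNNB1, which encodes β-catenin, averaged 62621 ± 2988 normalized counts in treated and 22213 ± 176 in untreated edited libraries, and 63338 ± 1128 with and 24815 ± 349 without TGFβ in wild type (SD, n = 3 each). Its log2 fold change with TGFβ was 1.49 ± 0.05 (adjusted p = 5.77e-13) in the edited line and 1.35 ± 0.05 (adjusted p = 2.2e-12) in wild type. TLE4, a corepressor that binds TCF factors, averaged 763 ± 53.1 with and 1513 ± 39.5 without TGFβ in the edited line, and 999 ± 28.5 with and 2542 ± 168 without it in wild type. The log2 fold change of TLE4 with TGFβ was -0.99 ± 0.08 (adjusted p = 8.79e-09) in the edited line and -1.35 ± 0.08 (adjusted p = 2.11e-10) in wild type. Between the lines it was -0.39 ± 0.08 (adjusted p = 0.00334) with and -0.75 ± 0.08 (adjusted p = 2.4e-06) without TGFβ. In the comparisons between the lines 2 of the 28 were higher and 1 lower with TGFβ (10.7%, near the 11.7% of all tested genes), and 8 were higher and 5 lower without it (46.4%, beside 31.8%).

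Of 19 genes of ligand secretion and extracellular regulation, 13 were tested. With TGFβ 9 rose and 3 fell in the edited line (92.3% called, beside 62.8% of all tested genes). In wild type 9 rose and 2 fell (84.6%, beside 61.7%). GPC4, a glypican, averaged 1264 ± 49.2 normalized counts in treated and 54.6 ± 8.20 in untreated edited libraries, and 1058 ± 35.4 with and 52.9 ± 3.48 without TGFβ in wild type. It rose by 4.52 ± 0.13 (adjusted p = 4.6e-14) on the log2 scale in the edited line and by 4.30 ± 0.13 (adjusted p = 9.44e-14) in wild type. TRABD2B, a protease that inactivates WNT ligands, rose by 5.21 ± 0.23 (adjusted p = 8.89e-12) in the edited line and by 4.05 ± 0.23 (adjusted p = 2.48e-10) in wild type. WLS, the carrier that takes WNT proteins to the cell surface, averaged 2948 ± 272 in treated edited and 1716 ± 136 in treated wild-type libraries and was higher in the edited line by 0.78 ± 0.09 (adjusted p = 3.06e-05). RSPO3, an R-spondin and so a ligand of LGR4, averaged 45891 ± 2908 in treated and 25234 ± 1016 in untreated edited libraries, and 39463 ± 3168 with and 25959 ± 677 without TGFβ in wild type. The difference of RSPO3 between the treated lines (0.22 ± 0.07 (adjusted p = 0.0457)) was lost when any of 10 single libraries was left out (all but repeat 1 of treated wild type and repeat 2 of the treated edited line), at 0.17 to 0.22. Without TGFβ, LGR6 averaged 95.2 ± 29.2 in the edited line and 30.8 ± 12.3 in wild type (1.62 ± 0.36 (adjusted p = 0.00248)). NOTUM was lower in the untreated edited line (-1.21 ± 0.41 (adjusted p = 0.0356)), a call lost when any of 4 single libraries was left out, at -1.31 to -0.94.

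Of 14 alternative receptors and polarity genes, 13 were tested. With TGFβ 10 rose and 1 fell in the edited line (84.6% called, beside 62.8% of all tested genes). In wild type 9 rose and 1 fell (76.9%, beside 61.7%). PTK7, a pseudokinase co-receptor, averaged 6770.2 ± 235 normalized counts in treated and 177 ± 9.13 in untreated edited libraries, and 5879.9 ± 156 with and 509 ± 69.5 without TGFβ in wild type. It rose by 5.25 ± 0.09 (adjusted p = 8.05e-17) in the edited line and 3.54 ± 0.09 (adjusted p = 7.09e-15) in wild type, a difference of 1.71 ± 0.12 (adjusted p = 1e-06), and was lower in the untreated edited line than in untreated wild type (-1.51 ± 0.09 (adjusted p = 7.25e-09)). ROR1, a receptor of WNT5A, averaged 2729 ± 211 in treated edited and 1952 ± 277 in treated wild-type libraries (log2 fold change 0.49 ± 0.11 (adjusted p = 0.00696)), a call lost with the middle treated wild-type library alone (0.40). Of 16 further published β-catenin targets 14 were tested. With TGFβ 8 rose and 3 fell in the edited line (78.6% called, beside 62.8% of all tested genes). In wild type 7 rose and 3 fell (71.4%, beside 61.7%). EPHB2, an ephrin receptor, averaged 42205 ± 2187 with and 1787 ± 171 without TGFβ in the edited line, and 32811 ± 727 with and 549.5 ± 3.98 without it in wild type. It rose by 4.56 ± 0.07 (adjusted p = 1.59e-17) in the edited line and 5.90 ± 0.07 (adjusted p = 6.02e-19) in wild type, with a difference of -1.33 ± 0.09 (adjusted p = 8.41e-07). TNFRSF19 averaged 1857 ± 64.2 with and 174 ± 18.3 without TGFβ in the edited line, and 1048 ± 97.7 with and 298 ± 39.2 without it in wild type, and its rise in the edited line exceeded that in wild type by 1.60 ± 0.16 (adjusted p = 1.48e-05).

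Over the tested genes within 5 Mb on either side of each member, the median log2 fold change of the untreated edited line over untreated wild type lay between -0.17 (around DKK1) and 0.17 (around FZD5). It was 0.06 over 42 neighbours of LEF1, 0.05 over 50 neighbours of FZD3 and -0.11 over 33 neighbours of SFRP4. With TGFβ the median lay between -0.08 (around WNT5B) and 0.20 (around FZD6), with 0.04 around LEF1 and 0.01 around SFRP4. It was 0.15 around FZD3, beside a difference of 0.40 for FZD3 itself, and the 0.20 around FZD6 stood beside 0.27 for FZD6 itself. Over all 543 tested genes of chromosome 8, which holds FZD3, FZD6 and SFRP1, the median was 0.15 with TGFβ and 0.07 without it. SFRP1 itself stood at -0.27 with TGFβ and -0.89 without it.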

How the data were processed

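RNA-seq of 12 libraries was analysed from a deposited table of normalized counts per gene, a signal that the authors made from reads. The submitters' processing notes name the build GRCh38.p14 and the tools HISAT2, StringTie, featureCounts and DESeq2. Not given in the sources used here are their versions, the annotation and the strand setting, so overlapping and antisense genes are uncertain. Of the tested members, 14 share exon bases with another annotated gene. In every library the deposited values fell on multiples of 1 step size, and 100% of them, divided by it, came within 0.01 of a whole read (largest deviation 0.000336), with steps matching median-of-ratios size factors. The table had 58830 entries, 28 of them with names turned into dates.

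Genes reaching 10 in 3 or more of the 12 libraries (20456) were fitted by limma 3.58.1 (R 4.3.3, trend) on log2(value + 1), as 4 group means in 1 fit, a scale that understates changes of low genes. The 5 comparisons were two-sided, with Benjamini-Hochberg adjustment over all tested genes and a threshold of 0.05; the script was tested on simulated data. Values after ± are SE for log2 fold changes and SD for means. P-values measure the spread between the labelled repeats. Alternatives covered the pseudocount (0.5, 10), the filter (none, 50), scaling, robust variance, a fit blocked by replicate number, fits limited to the compared groups, omission of each library, and edgeR 4.0.16 (quasi-likelihood) and DESeq2 1.42.0 on the recovered read counts. Over all genes edgeR called 12803 for TGFβ in the edited line, 12669 for TGFβ in wild type, 2564 and 6529 between the lines with and without TGFβ, and 3404 for the interaction. Reduction of treated wild type to its middle library and removal of length trends were added after seeing the data. Counting intervals are exact 95% intervals and cover counting error only; 3 reads per library is the limit taken for a count of 0.

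The members, lists and tests were chosen with earlier results of these data known. Full statistics are given for members called with an absolute log2 fold change of at least 1 or called in the interaction. The exceptions are WNT6, WNT7A, SFRP5 and DKK2, tested through 1 condition alone, whose TGFβ responses are given as reads and ratios. Other lists are shown through counts and some of their most changed called genes. Exon lengths, overlaps and neighbours came from GENCODE 29 on GRCh38 (lengths for 80.8% of tested genes), and promoters from RefSeq (GRCh38.p14). The labels do not state whether same-numbered libraries form pairs, and the main fit did not pair them.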

Additional observations from a re-analysis of the deposited data

Results flagged for a closer look

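The 11 members below had a TGFβ response that differed between the lines in the test of the interaction (limma, adjusted p under 0.05). The value given is the log2 response of the edited line minus that of wild type. More positive responses in the edited line were those of DKK3 (1.02), TCF7L1 (1.01), WNT5A (0.89), NKD1 (0.86), SFRP4 (0.74), SFRP1 (0.63), DKK1 (0.63), TCF7 (0.54) and WNT7B (0.31). WNT4 (-0.82) and AXIN2 (-0.52) had more negative ones. Among these, WNT5A was the member that was called with TGFβ in wild type and not in the edited line.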

How the results depend on the processing

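Of 103 calls of members, 84 held under each of up to 27 alternatives and 19 were lost under at least 1. The 84 include the TGFβ calls of WNT6, WNT7A, SFRP5 and DKK2 in both lines. These members met the filter through 1 condition alone, so their calls add nothing to this tally. Between the lines with TGFβ, the main counts were 11 higher and 1 lower. The count of members higher became 7 with treated wild type reduced to its middle library. The count lower became 2 with a filter of 50 or TMM factors, 3 with edgeR (TMM) and 3 with the replicate block, 4 with equal totals, quantile normalization, DESeq2 or the length trend removed, and 0 with the middle library alone. For the interaction, the count with a more negative response (main 2) became 6 with equal totals or the length trend removed, 4 with TMM factors or edgeR (TMM), 5 with DESeq2 and 1 with the middle library alone. The cause of these shifts was not tested. Over all genes, equal totals gave 1254 higher and 1355 lower between the treated lines (main 1510 and 884), and 1731 and 1628 for the interaction (main 2163 and 1232).

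Leaving out 1 library at a time gave 21 to 23 members higher and 6 to 9 lower with TGFβ in the edited line, 23 to 24 and 8 to 9 in wild type, 8 to 12 and 1 to 2 between the treated lines, 8 to 11 and 6 to 7 between the untreated lines, and 7 to 10 and 1 to 3 for the interaction. The counts with TGFβ cover all tested members, with those that met the filter through 1 condition alone. Signs turned for TCF7L2 with TGFβ in wild type (-0.02, length trend removed) and for WNT5A with TGFβ in the edited line (-0.08 to 0.01 over the left-out libraries, with 0.01 without replicate 3 of either edited group). With the length trend removed, which left 16522 genes, the median log2 fold change with TGFβ was -0.130 in the edited line and -0.134 in wild type, against 0.026 and 0.017 over the 20456 genes of the main analysis.

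Whether the replicate numbers pair libraries stayed undecided. The 18 same-numbered pairs correlated between -0.027 and 0.45, with a median of 0.0785 and 6 over 0.1. The 36 pairs with different numbers correlated between -0.44 and 0.394, with a median of -0.04 and 3 over 0.1. With the replicate block, 2987 genes were called between the treated lines (main 2394) and 3987 for the interaction (main 3395). Beyond the count of lower members given above, the block ended the FZD4 call between the untreated lines (0.31). It also ended the TCF7L2 call with TGFβ in wild type (0.14). Of 40 results of other pathway genes, 33 held and 7 were lost under at least 1 alternative. Depth limits WNT6, SFRP5 and untreated DKK2, which rest on few reads.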
